A study of Arabidopsis thaliana with 18 samples.

Results

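Roots of 2 Arabidopsis thaliana lines that were both labelled UAS-YUC4 were compared, J0951/UAS-YUC4 with Q0990/UAS-YUC4. Each had 3 libraries, so the comparison used 6 of the 18 libraries of the series, chosen by their labels. The whole series held 6 genotypes with 3 libraries each. Of these, 3 were the driver lines J0571, Q2500 and J0121, each combined with UAS-YUC4, whose libraries enter the fit and whose means are given for a few genes. All seedlings were 5 days old and grown on 1/2 MS medium. Both groups carried UAS-YUC4, a transgene with the auxin synthesis gene YUC4 behind the UAS sequence to which the yeast transcription factor GAL4 binds. They differed in the GAL4 driver line, J0951 or Q0990. A further group, J0951/Col, had the J0951 driver in Col without UAS-YUC4, and its values are given beside the others. None of the 6 genotypes of the series had the Q0990 driver without UAS-YUC4. The labels do not name the cells in which a driver is active. From earlier work on these enhancer trap lines, J0951 is known for activity in the epidermis and lateral root cap, and Q0990 for activity in the young vascular tissue of the stele. This was not measured here. The driver line and the level of YUC4 differed together between the groups, so their effects cannot be told apart. All values come from whole roots, in which fewer cells of a type and less RNA per cell cannot be told apart.

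Auxin (indole-3-acetic acid) is made from tryptophan in a short pathway. TAA1 and its relatives convert tryptophan to indole-3-pyruvate, and the YUC flavin monooxygenases convert this to auxin. Auxin binds the TIR1/AFB receptors together with Aux/IAA repressors, which are then degraded, and ARF transcription factors are released to act on their targets. Among these targets are the Aux/IAA genes themselves, the GH3 genes, whose enzymes conjugate auxin to amino acids, and the SAUR genes, whose products act in cell growth. In roots auxin is known for its part in root hair growth, lateral root formation, the stem cell niche and vascular development.

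Expression is given as FPKM, in which the fragments of a gene are divided by its length and by the size of the library. Over the 6 libraries the summed FPKM ranged from 651395 to 673584, between 18324 and 18724 genes reached 1 FPKM, and the lowest correlation between libraries of a group was 0.990 to 0.993. Differences are of log2(FPKM + 1), J0951/UAS-YUC4 minus Q0990/UAS-YUC4, and are given as log2 differences with n = 3 libraries per group. They understate the change of genes with low FPKM. A gene was called when its limma p, adjusted by the Benjamini-Hochberg method over all 19260 genes tested, was under 0.05. The words higher and lower without a group refer to the level in J0951/UAS-YUC4 and are used for called genes. The sources do not say whether the libraries of a group came from separate plants, so the p-values measure only how these libraries vary, in part perhaps for technical reasons. The titles of the Q0990/UAS-YUC4 libraries carry an added suffix that those of the other groups lack, and its meaning is not given.

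YUC4 (AT5G11320), the gene of the transgene, was far more abundant in the J0951 line. Its level was 31.51, 36.55 and 44.6 FPKM in the libraries of J0951/UAS-YUC4. The libraries of Q0990/UAS-YUC4 held 1.68, 11.95 and 0.29 FPKM, and those of J0951/Col held 0.27, 0.15 and 0.3 FPKM. All 3 J0951/UAS-YUC4 libraries lay above all 3 Q0990/UAS-YUC4 libraries, which differed widely among themselves, and replicate 3 of Q0990/UAS-YUC4 lay within the range of J0951/Col. The lowest J0951/UAS-YUC4 library held 2.64 times the level of the highest Q0990/UAS-YUC4 library, and the ratio of the group means was 8.09. The log2 difference was 3.43 with a standard error (SE) of 0.492 and a limma adjusted p = 3.4e-05. This SE draws on the spread in all 18 libraries, and a fit of the 6 libraries alone gave a limma adjusted p = 0.0035. The other driver lines with UAS-YUC4 held more YUC4, with means of 74.1 ± 5.51 FPKM for J0571, 102 ± 15.7 FPKM for Q2500 and 825 ± 88.2 FPKM for J0121 (SD, n = 3). Q0990/UAS-YUC4 thus had the lowest YUC4 mean of the 5 lines with the transgene and J0951/UAS-YUC4 the next. The log2 difference was 4.36 without replicate 2 of Q0990/UAS-YUC4 and 2.70 without replicate 3. A 2-sided exact permutation test gave p = 0.1, the smallest that 3 against 3 libraries allow.

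The transcriptomes of these roots differed broadly. Of the 19260 genes tested, 10345 (53.7%) were called, 5562 (28.9%) higher and 4783 (24.8%) lower. A difference of at least 2-fold was called for 369 genes higher (1.92%) and 447 lower (2.32%), so most called differences were small. In 11370 genes (59.0%) the 3 libraries of one group did not overlap with the 3 of the other. The median log2 difference of all genes tested was 0.02. Against J0951/Col, with which the same libraries are compared again, 7796 genes (40.5%) were called for J0951/UAS-YUC4 and 88 (0.457%) for Q0990/UAS-YUC4. With most genes called in the direct comparison, the counts within a gene group below are to be read against the shares 28.9% and 24.8%. Genes were tested when at least 3 of the 18 libraries reached 1 FPKM, so a gene that is high in 1 group alone could enter through that group. This held for 179 genes that entered only through J0951/UAS-YUC4, 128 of them called higher, and for 48 that entered only through Q0990/UAS-YUC4, 14 of them called lower. The filter favoured a difference in such genes, though not all of them were called. Where one is named its values are a description, its call supports nothing, and the count of its list is also given without it.

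**Figure D1:**
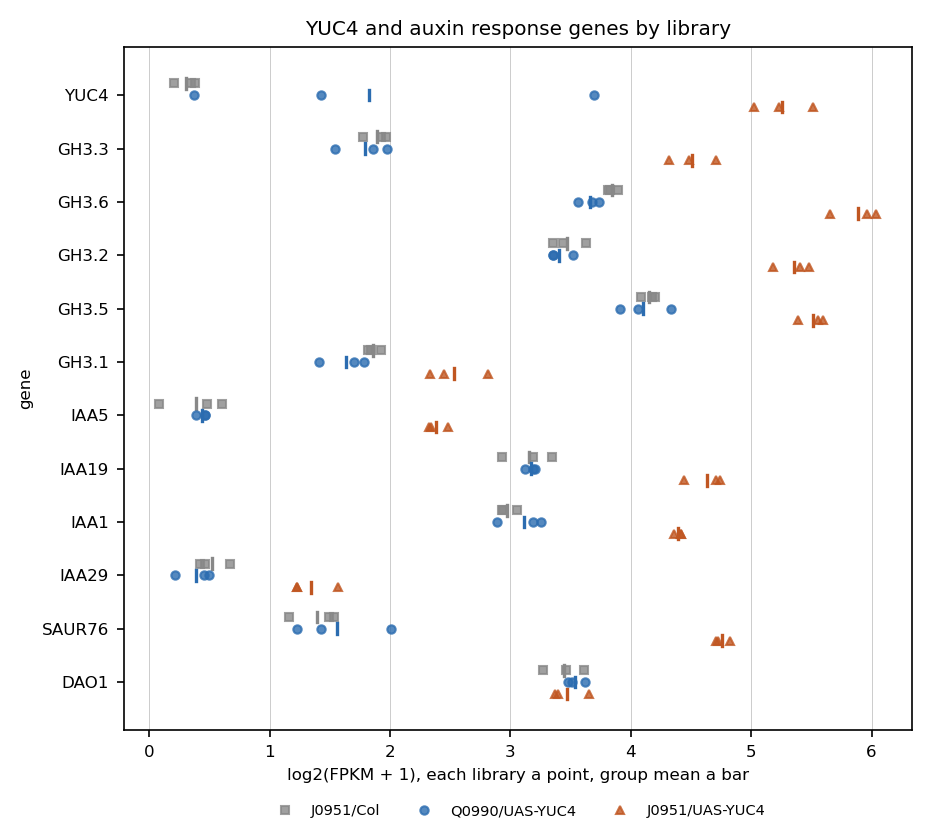
Levels of YUC4 and of 11 auxin response genes as log2(FPKM + 1) on the horizontal axis, with 1 point per library and a bar at each group mean, for J0951/Col (grey squares), Q0990/UAS-YUC4 (blue circles) and J0951/UAS-YUC4 (orange triangles). For every gene but DAO1 the J0951/UAS-YUC4 libraries lie to the right of both other groups. IAA29 entered the test only through J0951/UAS-YUC4, so its position is a description.

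After SAUR76, the largest log2 differences in the auxin lists, which leave out YUC4, were those of GH3.3, GH3.6 and GH3.2. These GH3 genes encode enzymes that lower free auxin by conjugation. GH3.3 (AT2G23170) stood at 18.92, 21.41 and 25.18 FPKM in J0951/UAS-YUC4 and at 2.62, 1.91 and 2.92 FPKM in Q0990/UAS-YUC4, a log2 difference of 2.71 (SE 0.186, limma adjusted p = 3.3e-08). The groups were far apart, and replicate 2 of Q0990/UAS-YUC4, which held the most YUC4 of its group, held the least GH3.3. GH3.6 (AT5G54510) stood at 49.33, 61.4 and 64.69 FPKM against 11.78, 12.3 and 10.82 FPKM (2.23, limma adjusted p = 9.5e-09). GH3.2 (AT4G37390) stood at 35.22, 43.74 and 41.44 FPKM against 9.19, 9.22 and 10.46 FPKM (1.95, limma adjusted p = 1.9e-09). No library of one group reached the other in either gene. GH3.5 was higher by 1.41 and GH3.1 by 0.90. Over the 13 tested genes of auxin conjugation and oxidation 6 were higher and 1 was lower, with a median log2 difference of 0.32. With single libraries left out 0 to 2 were lower, 0 without replicate 3 of either group and 2 without replicate 2 of J0951/UAS-YUC4 or replicate 1 of Q0990/UAS-YUC4. DAO1 (AT1G14130), the dioxygenase that oxidises auxin, stood at 9.33, 11.59 and 9.52 FPKM against 11.27, 10.39 and 10.15 FPKM, which overlap (log2 difference -0.06, SE 0.097, limma adjusted p = 0.61).

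Against J0951/Col the same 5 GH3 genes were higher in J0951/UAS-YUC4, by 2.61 for GH3.3, 2.04 for GH3.6, 1.88 for GH3.2, 1.36 for GH3.5 and 0.67 for GH3.1 on the log2 scale. In Q0990/UAS-YUC4 the log2 differences from J0951/Col were -0.10, -0.19, -0.07, -0.05 and -0.23 in the same order, none of them called (limma adjusted p between 0.34 and 0.79). The GH3.3 means of the other UAS-YUC4 lines, which held more YUC4 than J0951/UAS-YUC4, were 7.96 FPKM for J0571, 11.2 FPKM for Q2500 and 8.07 FPKM for J0121, below all 3 libraries of J0951/UAS-YUC4.

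The Aux/IAA repressors split. Of 27 tested, 12 were higher and 8 lower, with a median log2 difference of 0.11. Without 2 members that entered the test only through J0951/UAS-YUC4, 10 of 25 were higher and the median was 0.05. IAA5 (AT1G15580) stood at 4.07, 4.0 and 4.59 FPKM in J0951/UAS-YUC4 and at 0.38, 0.31 and 0.38 FPKM in Q0990/UAS-YUC4, a log2 difference of 1.94 (SE 0.199, limma adjusted p = 1.7e-06). IAA19 (AT3G15540) stood at 25.1, 25.78 and 20.67 FPKM against 8.22, 8.13 and 7.68 FPKM (1.46, limma adjusted p = 1.4e-07). IAA1 (AT4G14560) stood at 20.3, 20.33 and 19.5 FPKM against 8.13, 8.55 and 6.42 FPKM (1.28, limma adjusted p = 2.4e-07). Each of these genes had narrow groups that lay well apart. IAA29, which entered only through J0951/UAS-YUC4, held 1.34 to 1.97 FPKM against 0.16 to 0.41 FPKM. The family member with the smallest p among those that were lower was IAA27 (AT4G29080), at 29.5, 23.01 and 26.3 FPKM against 46.15, 44.23 and 40.96 FPKM (-0.72, limma adjusted p = 1.5e-05). With a filter of 5 FPKM in place of 1 FPKM, 7 members were called higher, since fewer low genes were then tested.

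SAUR76 (AT5G20820), a member of the small auxin up RNA family, held 25.16, 25.48 and 27.36 FPKM in J0951/UAS-YUC4 and 1.69, 3.03 and 1.34 FPKM in Q0990/UAS-YUC4, a log2 difference of 3.2 (SE 0.199, limma adjusted p = 1.3e-08). J0951/Col lay beside Q0990/UAS-YUC4, at 1.82, 1.9 and 1.23 FPKM. Of the 9 SAUR genes tested on the list, 4 were higher and 3 lower, with a median of 0.27. SAUR66 and SAUR24 entered only through J0951/UAS-YUC4, and without them 2 of 7 were higher and 3 lower, with a median of 0.12. SAUR66 held 1.45, 1.45 and 2.11 FPKM against 0.1 FPKM in each Q0990/UAS-YUC4 library. SAUR24 held 1.18, 1.23 and 1.07 FPKM against 0.0, 0.0 and 0.16 FPKM. SAUR24 has near-identical neighbours, so which copy its fragments came from is uncertain. SAUR32 went the other way, with 63.52, 53.53 and 52.37 FPKM against 97.3, 67.07 and 96.32 FPKM (-0.60, limma adjusted p = 0.0011). Without a filter on low values 8 SAUR genes were called higher, and with the filter at 5 FPKM 2 were.

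Genes of auxin synthesis moved in both directions. TAA1 (AT1G70560), the aminotransferase ahead of the YUC enzymes, stood at 23.94, 23.48 and 26.16 FPKM in J0951/UAS-YUC4 and at 8.51, 9.79 and 6.37 FPKM in Q0990/UAS-YUC4 (1.48, SE 0.138, limma adjusted p = 7.2e-07). YUC6 (AT5G25620) stood at 5.12, 4.2 and 3.14 FPKM against 9.22, 8.8 and 8.65 FPKM (-0.96, limma adjusted p = 4.6e-06). The groups were separate in both genes, with TAA1 high and YUC6 low in J0951/UAS-YUC4. YUC8 was higher by 0.56, and ASB1, a subunit of anthranilate synthase in tryptophan synthesis, by 0.38. Of 15 tested genes 6 were higher and 2 lower, with a median of 0.25. The count higher was 3 without replicate 1 of Q0990/UAS-YUC4. The count lower was 1 without replicate 2 or 3 of J0951/UAS-YUC4 or replicate 3 of Q0990/UAS-YUC4.

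Among auxin carriers and the kinases that direct them, 8 of 20 genes were higher and 4 lower, with a median of 0.12. LAX1 (AT5G01240), an influx carrier, stood at 6.37, 5.6 and 5.83 FPKM in J0951/UAS-YUC4 and at 20.09, 18.65 and 18.55 FPKM in Q0990/UAS-YUC4, a log2 difference of -1.54 (SE 0.137, limma adjusted p = 5e-07). Its relative AUX1 stood at 72.54, 66.63 and 74.27 FPKM against 85.72, 71.68 and 70.16 FPKM, which overlap (-0.09, limma adjusted p = 0.31). The kinases PID and WAG2, which phosphorylate PIN efflux carriers, were higher by 1.28 and 1.09. PID held 4.3, 4.4 and 5.65 FPKM against 1.68, 1.52 and 0.95 FPKM. PIN2, the efflux carrier of the root epidermis and cap, held 64.11, 61.35 and 71.85 FPKM against 46.31, 47.49 and 36.48 FPKM (0.59, limma adjusted p = 4.5e-05). For PIN2 the J0951/Col libraries lay nearer to J0951/UAS-YUC4, at 57.06, 63.39 and 59.13 FPKM. Its log2 difference from J0951/Col was 0.13 in J0951/UAS-YUC4 (limma adjusted p = 0.25) and -0.46 in Q0990/UAS-YUC4 (limma adjusted p = 0.026). PILS3, a carrier of the endoplasmic reticulum, was lower (-0.79).

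The receptors and ARFs differed little in size. AFB1 and TIR1, both auxin receptors, were higher by 0.42 and 0.33, and AFB5 by 0.23. TIR1 held 61.4, 57.61 and 65.44 FPKM in J0951/UAS-YUC4 and 50.08, 49.33 and 46.91 FPKM in Q0990/UAS-YUC4. ARF7, an activator of auxin targets in lateral root formation, was lower (-0.35). Of 16 tested genes 6 were higher and 2 lower, with a median of 0.14. Leaving out 1 library left 1 gene lower in each case, apart from replicate 2 of J0951/UAS-YUC4.

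Lateral root genes did not move as a block. Of 16 tested, 7 were higher and 4 lower, with a median of 0.15, or 6 of 15 higher and a median of 0.14 without the member that entered only through J0951/UAS-YUC4. LRP1, a transcription factor of lateral root primordia, was higher by 1.03, at 12.13, 11.18 and 12.5 FPKM against 6.57, 5.71 and 4.03 FPKM. PRE3, a small helix-loop-helix protein, was higher by 0.83 and LBD17 by 0.46. LBD16, a LOB domain factor of lateral root initiation, held 6.6, 6.71 and 6.31 FPKM against 5.8, 4.37 and 4.36 FPKM (0.38, limma adjusted p = 0.0042). LBD18 held 2.06, 2.06 and 2.32 FPKM against 1.38, 2.03 and 2.21 FPKM and overlapped (0.14, limma adjusted p = 0.32). LBD29 held 1.84, 1.89 and 1.3 FPKM against 2.5, 1.9 and 2.54 FPKM (-0.31, limma adjusted p = 0.045), and its groups nearly touched. The LBD29 call ended without replicate 3 of J0951/UAS-YUC4 (limma adjusted p = 0.22) and without replicate 1 (0.13) or replicate 3 (0.15) of Q0990/UAS-YUC4. The count of lateral root genes lower was 2 without replicate 3 of either group and 1 without replicate 1 of Q0990/UAS-YUC4.

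**Figure D2:**
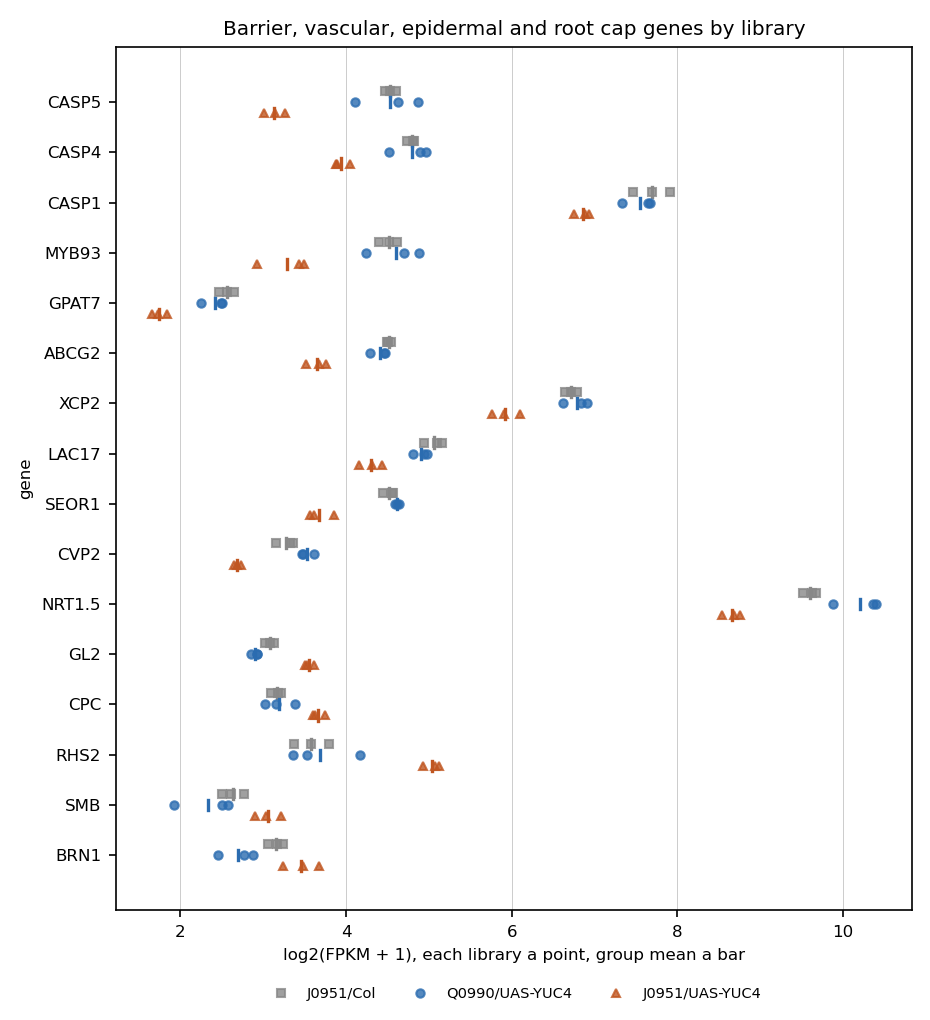
Levels of 16 genes of the root's cell layers as log2(FPKM + 1) on the horizontal axis, with 1 point per library and a bar at each group mean, for J0951/Col (grey squares), Q0990/UAS-YUC4 (blue circles) and J0951/UAS-YUC4 (orange triangles). The barrier and vascular genes from CASP5 to NRT1.5 lie lowest in J0951/UAS-YUC4, and the epidermal and root cap genes from GL2 to BRN1 lie highest there.

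Genes of the endodermal barriers were lower in J0951/UAS-YUC4. The Casparian strip is a lignin band in the walls of the endodermis, laid down at membrane domains made by the CASP proteins, and suberin is a lipid polymer deposited later on the same cells. Of 15 Casparian strip genes 12 were lower and 0 higher, with a median of -0.49, and of 20 tested suberin genes 15 were lower and 0 higher, with a median of -0.60. CASP5 (AT5G15290) held 7.02, 7.83 and 8.58 FPKM in J0951/UAS-YUC4 and 16.22, 23.73 and 28.26 FPKM in Q0990/UAS-YUC4, a log2 difference of -1.40 (SE 0.189, limma adjusted p = 2e-05). CASP1 (AT2G36100) held 121.52, 117.45 and 106.96 FPKM against 159.59, 202.43 and 199.16 FPKM (-0.69, limma adjusted p = 0.00011). Replicate 1 of Q0990/UAS-YUC4 was the lowest of its group in both genes and still lay above all J0951/UAS-YUC4 libraries. CASP4 and CASP2 were lower, with log2 differences of -0.86 and -0.61.

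In the suberin list MYB93 (AT1G34670), a transcription factor, held 10.29, 9.79 and 6.59 FPKM against 17.96, 24.99 and 28.42 FPKM (-1.32, limma adjusted p = 1.4e-05). The transporter ABCG2 held 11.76, 12.54 and 10.42 FPKM against 18.56, 21.13 and 21.06 FPKM (-0.76), and the acyltransferase GPAT7 held 2.15, 2.58 and 2.31 FPKM against 3.74, 4.66 and 4.62 FPKM (-0.67). No libraries overlapped in these genes. The suberin regulator MYB92 was lower as well (-0.61). The summed level of the 15 Casparian strip genes was 568 to 620 FPKM in J0951/UAS-YUC4, 746 to 917 FPKM in Q0990/UAS-YUC4 and 806 to 963 FPKM in J0951/Col. For the suberin list of 21 genes the sums were 313 to 383 FPKM, 480 to 577 FPKM and 570 to 679 FPKM.

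Vascular genes were lower too. Of 17 tested genes of the xylem secondary wall 14 were lower and 0 higher, with a median of -0.47, or 14 of 16 and -0.50 without the gene that entered only through Q0990/UAS-YUC4. XCP2 (AT1G20850), a protease of dying xylem vessels, held 67.36, 59.18 and 53.33 FPKM in J0951/UAS-YUC4 and 96.89, 118.93 and 112.81 FPKM in Q0990/UAS-YUC4 (-0.86, SE 0.111, limma adjusted p = 1.4e-05). The laccases LAC4, LAC11 and LAC17, which polymerise lignin, had log2 differences of -0.70, -0.63 and -0.61. Of 24 genes of the phloem and of vascular patterning 13 were lower and 0 higher, with a median of -0.48, or 13 of 23 and -0.49 likewise. SEOR1 (AT3G01680), which makes the protein filaments of sieve elements, held 13.43, 10.79 and 11.19 FPKM against 23.93, 23.18 and 23.43 FPKM (-0.94, SE 0.085, limma adjusted p = 5.6e-07). Its neighbour SEOR2 (-0.70), the phloem regulator APL (-0.65) and the vein patterning phosphatase CVP2 (-0.84) were lower with separate libraries.

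In the list of pericycle and stele genes 7 of 11 were lower and 1 was higher, with a median of -0.37. NRT1.5 (AT1G32450), which loads nitrate into the xylem, held 430.24, 410.83 and 371.67 FPKM in J0951/UAS-YUC4 and 1346.2, 937.49 and 1312.95 FPKM in Q0990/UAS-YUC4 (-1.55, SE 0.177, limma adjusted p = 4.7e-06). J0951/Col lay between them, at 790.84, 730.18 and 816.4 FPKM. Its difference from J0951/Col was -0.95 in J0951/UAS-YUC4 (limma adjusted p = 0.00061) and 0.60 in Q0990/UAS-YUC4 (limma adjusted p = 0.10). HMA4, which loads zinc into the xylem, held 27.66, 28.03 and 21.13 FPKM against 45.49, 52.02 and 62.19 FPKM (-1.03). PHO1, which loads phosphate, held 150.73, 134.15 and 137.39 FPKM against 262.49, 191.12 and 248.27 FPKM (-0.72). For both genes J0951/Col again lay between the groups, at 32.43, 40.75 and 41.46 FPKM for HMA4 and at 169.53, 189.01 and 170.72 FPKM for PHO1. TMO5, a regulator of vascular cell divisions, was lower (-0.60).

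Genes of the outer layers were higher in J0951/UAS-YUC4. Of 11 epidermis patterning genes 6 were higher and 0 lower, with a median of 0.47. GL2 (AT1G79840), the homeodomain factor of non-hair cells, held 10.34, 10.56 and 11.19 FPKM against 6.56, 6.58 and 6.24 FPKM (0.65, SE 0.083, limma adjusted p = 1.2e-05). CPC, a mobile repressor that promotes hair fate, held 12.39, 11.15 and 11.34 FPKM against 9.4, 7.93 and 7.14 FPKM (0.47). EGL3, a helix-loop-helix partner in the same circuit, was higher by 0.55. Of 9 tested root cap genes 8 were higher and 0 lower, with a median of 0.52, and 5 were higher without replicate 3 of Q0990/UAS-YUC4. The NAC factors SMB, BRN1 and BRN2, which guide root cap maturation, were higher by 0.72, 0.76 and 0.75. BRN2 held 7.72, 7.96 and 8.3 FPKM against 4.28, 4.87 and 3.92 FPKM, and J0951/Col lay between, at 6.21, 5.01 and 6.91 FPKM. PASPA3, a protease of the cap's programmed cell death, was higher by 0.79.

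Of 26 root hair genes 14 were higher and 1 lower, with a median of 0.35. RHS2 (AT1G12950) held 29.56, 33.76 and 32.74 FPKM in J0951/UAS-YUC4 and 9.23, 17.03 and 10.58 FPKM in Q0990/UAS-YUC4 (1.36, SE 0.197, limma adjusted p = 3.7e-05). PRP1, a proline-rich wall protein, held 88.68, 76.62 and 83.33 FPKM against 27.19, 63.95 and 20.71 FPKM (1.29, limma adjusted p = 0.001). RSL4, a regulator of hair growth, held 12.68, 13.13 and 12.22 FPKM against 7.98, 12.02 and 9.19 FPKM (0.37, limma adjusted p = 0.033). Replicate 2 of Q0990/UAS-YUC4, the library with most YUC4 in its group, was the highest of its group in all 3 genes and lay nearest to J0951/UAS-YUC4. The summed level of the 26 genes was 709, 1200 and 831 FPKM in the libraries of Q0990/UAS-YUC4, 1250 to 1310 FPKM in J0951/UAS-YUC4 and 754 to 904 FPKM in J0951/Col. The root hair regulator RHD6 was higher by 0.55 and the expansin EXPA7 by 0.63. The RSL4 call ended when any 1 library other than replicate 2 of Q0990/UAS-YUC4 was left out, with limma adjusted p between 0.055 and 0.16. Of the root hair genes 2 were lower without replicate 1 of Q0990/UAS-YUC4 and 0 without replicate 1 of J0951/UAS-YUC4 or replicate 2 or 3 of Q0990/UAS-YUC4.

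In the root meristem list 9 of 18 genes were higher and 1 was lower, with a median of 0.29. The receptors RGI1, RGI2 and RGI3 of the root growth factor peptides, which maintain the meristem, were higher by 0.48, 0.50 and 0.52, and the peptide gene RGF3 by 0.86. RGI3 held 24.6, 27.69 and 29.69 FPKM against 19.32, 18.67 and 18.24 FPKM. The cell cycle list had 9 of 25 genes higher and 4 lower, with a median of 0.14. AUR2, a mitotic kinase, was higher by 0.55, at 12.98, 11.27 and 13.58 FPKM against 8.01, 8.15 and 8.58 FPKM. The replication clamp PCNA1 was higher by 0.68 and the cyclin-dependent kinase CDKB1;1 by 0.34, while the mitotic cyclin CYCB2;2 was lower (-0.38). Only 5 cell cycle genes were called higher without replicate 3 of Q0990/UAS-YUC4.

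**Figure D3:**
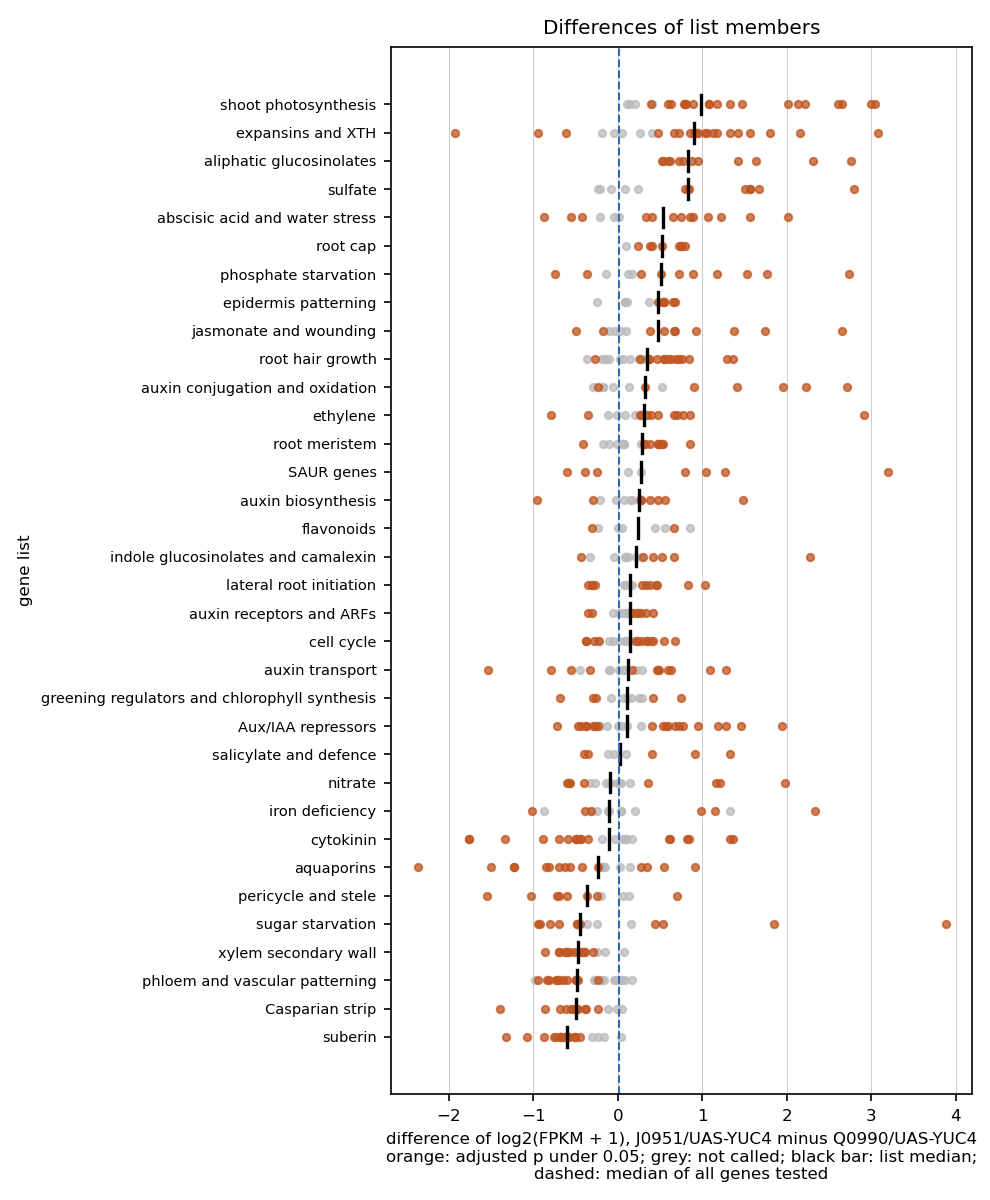
Log2 differences, J0951/UAS-YUC4 minus Q0990/UAS-YUC4, of the tested members of 34 gene lists, with 1 point per gene, orange where called and grey where not, a black bar at each list's median and a dashed line at the median of all genes tested, 0.02. Medians run from -0.60 for suberin to 0.98 for shoot photosynthesis, and the barrier and vascular lists lie at the low end. Without 2 genes that entered the test only through J0951/UAS-YUC4 the shoot photosynthesis median is 0.85, below the 0.9 of expansins and XTH.

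Cytokinin genes were divided, with 12 of 26 lower and 6 higher and a median of -0.11. ARR7 (AT1G19050), a response regulator that cytokinin induces and that dampens its signal, held 5.19, 3.7 and 4.85 FPKM in J0951/UAS-YUC4 and 17.13, 17.36 and 18.81 FPKM in Q0990/UAS-YUC4 (-1.76, SE 0.146, limma adjusted p = 2.4e-07). CYP735A2, a hydroxylase that makes trans-zeatin, held 7.34, 4.54 and 5.14 FPKM against 25.42, 18.01 and 21.12 FPKM (-1.76). The groups did not overlap in either gene, and both were low in J0951/UAS-YUC4. In contrast CKX3, an oxidase that degrades cytokinin, held 5.77, 6.9 and 7.65 FPKM against 2.0, 2.33 and 1.72 FPKM (1.36), and the response regulator ARR3 was higher by 1.33. Against J0951/Col, CKX3 was higher by 1.43 in J0951/UAS-YUC4 and ARR7 was lower (-1.46), while the log2 differences in Q0990/UAS-YUC4 were 0.07 and 0.30 and were not called (limma adjusted p = 0.75 and 0.26).

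For ethylene, 10 of 16 tested genes were higher and 2 lower, with a median of 0.31, or 9 of 15 higher and a median of 0.28 without the gene that entered only through J0951/UAS-YUC4. ACS9 (AT3G49700), an enzyme that makes the ethylene precursor ACC, held 8.71, 8.06 and 10.41 FPKM against 0.37, 0.3 and 0.33 FPKM (2.91, SE 0.147, limma adjusted p = 1.5e-09). In J0951/Col it held 0.03, 0.1 and 0.1 FPKM, and among the other UAS-YUC4 lines its mean was 7.72 FPKM for J0571 but 0.647 FPKM for Q2500 and 0.82 FPKM for J0121. The receptors ERS2 and ETR2 were higher by 0.77 and 0.66.

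Of 14 tested genes of jasmonate and wounding 8 were higher and 2 lower, with a median of 0.47, and the count lower was 1 without replicate 1 or 3 of either group. VSP2, a storage protein induced by jasmonate, held 14.02, 17.07 and 11.36 FPKM against 0.44, 3.64 and 1.03 FPKM (2.65, SE 0.372, limma adjusted p = 2.8e-05). CYP94C1, which inactivates jasmonate, was higher by 1.37, the repressor JAZ10 by 0.92 and the synthesis enzyme OPR3 by 0.55. Of 8 salicylate and defence genes 3 were higher and 2 lower, with a median of 0.03. Without CBP60G, which entered only through J0951/UAS-YUC4, 2 of 7 were higher and 2 lower, near the shares over all genes, with a median of -0.04. CBP60G, a regulator of salicylate synthesis, held 1.46, 1.86 and 2.7 FPKM against 0.19, 0.16 and 0.18 FPKM. The transcription factor WRKY40 was higher by 0.91 and PAD4 by 0.40, and EDS1 was lower (-0.35). The EDS1 call ended without replicate 3 of J0951/UAS-YUC4 (limma adjusted p = 0.056), where 0 genes of the list were lower, and 1 was lower without replicate 1 of J0951/UAS-YUC4 or replicate 2 or 3 of Q0990/UAS-YUC4.

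Of 16 tested genes of abscisic acid and water stress 10 were higher and 3 lower, with a median of 0.53. P5CS1, which makes proline, held 64.79, 76.48 and 83.34 FPKM against 34.13, 39.4 and 31.62 FPKM (1.07, SE 0.087, limma adjusted p = 2.1e-07). KIN2 was higher by 1.56, and the phosphatase ABI1, a negative regulator of abscisic acid signalling, by 0.75. The dehydrin COR47 was lower, at 255.0, 262.12 and 211.87 FPKM against 423.52, 432.75 and 471.16 FPKM (-0.87). These genes therefore did not move in 1 direction.

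All 12 tested genes of aliphatic glucosinolates, sulphur-rich defence compounds made from methionine, were higher, with a median of 0.83. BCAT4 (AT3G19710), the aminotransferase of the first step, held 83.25, 52.7 and 64.34 FPKM in J0951/UAS-YUC4 and 15.63, 6.45 and 6.64 FPKM in Q0990/UAS-YUC4 (2.76, SE 0.343, limma adjusted p = 9.9e-06). CYP83A1 held 50.42, 34.37 and 41.76 FPKM against 11.49, 5.53 and 6.86 FPKM (2.31). Replicate 1 was the highest library of its group in both genes and both groups, and the groups stayed apart. IPMI2 and BCAT3 of the chain elongation cycle were higher by 1.42 and 0.52. In the list of indole glucosinolates and camalexin 5 of 13 were higher and 1 was lower, with a median of 0.21. Without CYP71A12, which entered only through J0951/UAS-YUC4, 4 of 12 were higher and the median was 0.17. CYP71A12 held 5.6, 3.74 and 3.92 FPKM against 0.03, 0.29 and 0.03 FPKM. CYP79B2, the enzyme that turns tryptophan into indole-3-acetaldoxime, was higher by 0.66. The count lower in that list was 2 without replicate 1 of J0951/UAS-YUC4 or replicate 2 of Q0990/UAS-YUC4, and 0 without replicate 2 or 3 of J0951/UAS-YUC4 or replicate 1 of Q0990/UAS-YUC4.

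Sulfate genes were higher in 8 of 13 cases and lower in 0, with a median of 0.83. The count lower was 1 without replicate 2 of J0951/UAS-YUC4 and 2 without replicate 2 of Q0990/UAS-YUC4. SULTR2;1 (AT5G10180), a sulfate transporter of vascular tissue, held 28.69, 32.7 and 26.31 FPKM against 3.82, 3.23 and 2.94 FPKM (2.80, SE 0.217, limma adjusted p = 1.3e-07). SDI1 and LSU2, markers of sulfur deficiency, were each higher by 1.56, and APR1, a reductase of sulfate assimilation, by 0.84.

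Phosphate starvation genes were higher in 8 of 13 cases and lower in 2, with a median of 0.51. SPX1, a phosphate sensor, held 21.13, 23.01 and 19.69 FPKM against 5.28, 5.37 and 5.87 FPKM (1.77, SE 0.138, limma adjusted p = 1.4e-07). The ribonuclease RNS1 was higher by 2.74, the phosphatase PS2 by 1.53 and the acid phosphatase PAP17 by 1.17. The count lower was 1 without replicate 2 or 3 of either group.

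Of 17 tested nitrate genes 4 were higher and 4 lower, both below the shares over all genes of 28.9% and 24.8%, with a median of -0.09. Without the gene that entered only through J0951/UAS-YUC4, 3 of 16 were higher. The nitrate reductase NIA2 held 179.51, 176.9 and 183.67 FPKM against 65.39, 88.43 and 80.35 FPKM (1.21, SE 0.153, limma adjusted p = 1.2e-05). The regulators HRS1, TGA1 and NLP7 were lower (-0.58, -0.60 and -0.56). Of 16 tested iron deficiency genes 3 were higher and 3 lower, again below the shares over all genes, with a median of -0.11, and 5 were lower without replicate 2 of Q0990/UAS-YUC4. NAS2, a nicotianamine synthase, held 5.79, 7.07 and 7.7 FPKM against 0.78, 0.33 and 0.59 FPKM (2.33), whereas FIT, the regulator of iron uptake, held 22.65, 21.62 and 19.6 FPKM against 47.2, 33.91 and 53.76 FPKM (-1.02). IRT2, a metal transporter of the same response, was higher by 0.99, and the proton pump AHA2 was lower (-0.32). Of 8 tested flavonoid genes 1 was higher and 1 lower, and with single libraries left out 0 to 2 were higher and 0 to 1 lower.

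ASN1 (AT3G47340), an asparagine synthetase that is induced by low sugar, had the largest positive log2 difference among the named genes. It held 25.8 ± 5.84 FPKM (SD, n = 3) in J0951/UAS-YUC4, where replicates 1 and 3 stood at 31.76 and 25.39 FPKM and replicate 2 was the lowest. The libraries of Q0990/UAS-YUC4 held 0.29, 1.08 and 1.12 FPKM and those of J0951/Col 0.41, 0.44 and 0.57 FPKM. The J0951/UAS-YUC4 libraries lay far above both other groups, and the ASN1 log2 difference was 3.88 (SE 0.307, limma adjusted p = 1.6e-07). DIN2, a beta-glucosidase induced in the dark, entered the test only through J0951/UAS-YUC4 and held 2.6, 4.23 and 2.75 FPKM against 0.12, 0.09 and 0.23 FPKM. In the sugar starvation list 8 of 15 genes were lower and 4 higher, with a median of -0.45. The shares over all genes were 24.8% lower and 28.9% higher. Without DIN2, 3 of 14 were higher and the median was -0.46. DRM1 held 610.92, 466.29 and 573.91 FPKM against 827.19, 1015.58 and 1031.96 FPKM (-0.80), and EXL2 was lower (-0.70). The count lower was 5 without replicate 2 of either group and 3 without replicate 3 of Q0990/UAS-YUC4.

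Genes of the cell wall and of water channels differed in opposite directions. Of 25 tested expansins and xyloglucan endotransglucosylases (XTH), which loosen and remodel the wall, 17 were higher and 3 lower, with a median of 0.90, and 10 were higher by at least 2-fold. EXPA12 (AT3G15370) held 7.73, 6.57 and 11.31 FPKM against 0.14, 0.09 and 0.09 FPKM (3.08, SE 0.176, limma adjusted p = 6e-09), and J0951/Col held 0.14, 0.38 and 0.0 FPKM. XTH5 held 40.93, 39.06 and 50.8 FPKM against 9.65, 9.99 and 7.27 FPKM (2.16, limma adjusted p = 1.5e-08), and here J0951/Col lay between, at 15.04, 14.52 and 15.46 FPKM. XTH5 was called in both comparisons with J0951/Col, higher by 1.47 in J0951/UAS-YUC4 and lower in Q0990/UAS-YUC4 (-0.69, limma adjusted p = 0.034). EXPA11 did the same, with log2 differences of 0.56 and -0.38 (limma adjusted p = 2.5e-05 and 0.024). XTH22, a touch-induced member, was higher by 1.80.

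Of 21 aquaporins, the channels that carry water and small solutes across membranes, 11 were lower and 4 higher, with a median of -0.23. The vacuolar channel TIP2;3 (AT5G47450) held 37.18, 33.43 and 34.62 FPKM in J0951/UAS-YUC4, 174.08, 177.23 and 207.8 FPKM in Q0990/UAS-YUC4 and 208.81, 263.65 and 254.43 FPKM in J0951/Col. The J0951/UAS-YUC4 libraries lay far below both other groups, and the log2 difference was -2.37 (SE 0.174, limma adjusted p = 7.2e-08). PIP2;4, a channel of the plasma membrane, held 49.81, 50.28 and 41.7 FPKM against 123.63, 151.09 and 131.14 FPKM (-1.50). Here J0951/Col lay between the groups, at 74.68, 83.86 and 82.46 FPKM, with a log2 difference of -0.76 in J0951/UAS-YUC4 and 0.74 in Q0990/UAS-YUC4 (limma adjusted p = 0.0002 and 0.012). TIP2;2 and PIP2;3 were lower, each with a log2 difference of -1.23. PIP2;3 and PIP2;2 are near-identical copies, so the split of fragments between them is uncertain.

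Genes of photosynthesis, which mark green tissue, were higher in J0951/UAS-YUC4. Of 24 genes 20 were higher and 0 lower, with a median of 0.98, or 18 of 22 higher and a median of 0.85 without RBCS2B and RBCS1B, which entered the test only through J0951/UAS-YUC4. RBCS3B, a small subunit of Rubisco, held 12.59, 15.43 and 21.73 FPKM against 0.32, 2.21 and 1.13 FPKM (3.05, SE 0.454, limma adjusted p = 4.6e-05). LHCB2.2, a light-harvesting protein, held 6.84, 8.2 and 12.08 FPKM against 0.0, 0.73 and 0.07 FPKM (3.0). LHCB2.1 was higher by 2.65. Copies within the RBCS and LHCB2 families are nearly identical, so their separate values are uncertain. The summed level of the 24 genes was 866 to 1190 FPKM in J0951/UAS-YUC4, 492 to 600 FPKM in Q0990/UAS-YUC4 and 401 to 538 FPKM in J0951/Col. None of the 24 was at 0 in all 6 libraries. The libraries of J0571/UAS-YUC4 summed to 843, 969 and 1010 FPKM. Those of Q2500/UAS-YUC4 summed to 726, 770 and 519 FPKM, and those of J0121/UAS-YUC4 to 402, 456 and 318 FPKM. Whether these transcripts came from the roots or from remains of shoot was not tested, nor whether they have a part in the other differences.

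Transcripts of the plastid genome did not follow these nuclear genes. They made up 0.0267% to 0.0361% of summed FPKM in J0951/UAS-YUC4, 0.0530% to 0.0605% in Q0990/UAS-YUC4 and 0.0427% to 0.0677% in J0951/Col. Of 11 tested regulators of greening and enzymes of chlorophyll synthesis 2 were higher and 3 lower, near or below the shares over all genes, with a median of 0.11. GUN4, a regulator of chlorophyll synthesis, was higher by 0.75 and GLK2, a factor of chloroplast development, by 0.42, while the light signalling factors HYH and HY5 were lower (-0.68 and -0.29). The GLK2 call ended without replicate 2 of J0951/UAS-YUC4 (limma adjusted p = 0.11) and without replicate 1 (0.090) or replicate 3 (0.11) of Q0990/UAS-YUC4. The count higher was 4 without replicate 1 of J0951/UAS-YUC4 and 1 without replicate 2 of J0951/UAS-YUC4 or replicate 1 or 3 of Q0990/UAS-YUC4.

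**Figure D4:**
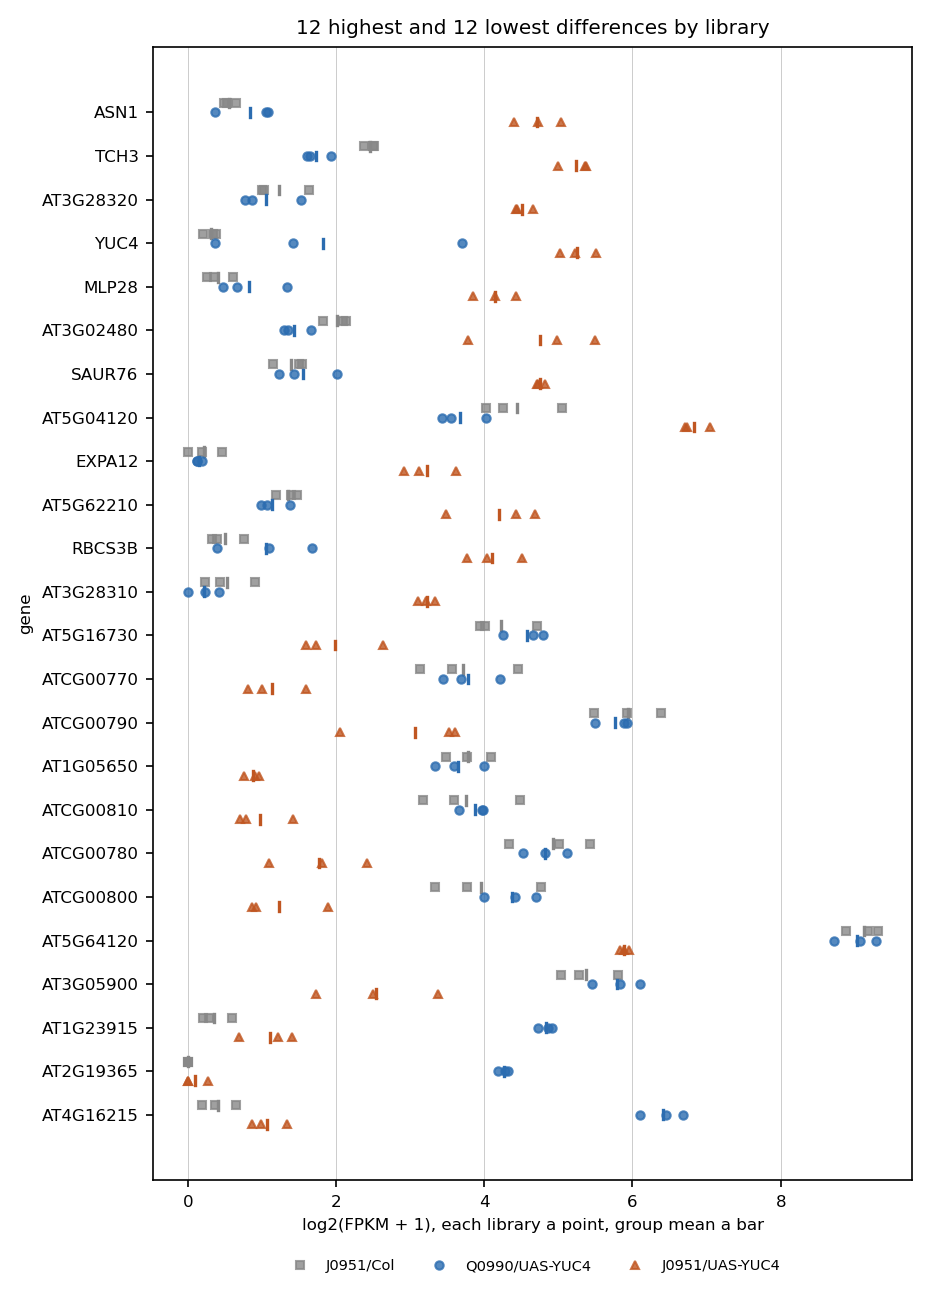
Levels of the 12 genes with the highest and the 12 with the lowest log2 differences, as log2(FPKM + 1) on the horizontal axis, with 1 point per library and a bar at each group mean, for J0951/Col (grey squares), Q0990/UAS-YUC4 (blue circles) and J0951/UAS-YUC4 (orange triangles). J0951/Col lies near Q0990/UAS-YUC4 for most of these genes, but for AT1G23915, AT2G19365 and AT4G16215 it lies near J0951/UAS-YUC4.

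The 12 largest positive differences, among called genes with separate libraries and a higher mean of at least 5 FPKM, ran from 3.01 to 3.88. Beside ASN1, YUC4, SAUR76, EXPA12 and RBCS3B they held TCH3 (AT2G41100), a calmodulin-like protein induced by touch, at 40.4, 40.17 and 30.91 FPKM against 2.83, 2.14 and 2.06 FPKM (3.51, SE 0.181, limma adjusted p = 1.8e-09). J0951/Col held 4.2, 4.67 and 4.71 FPKM of TCH3. The neighbouring loci AT3G28320, an uncharacterised protein, and AT3G28310, a protein with a domain of unknown function, had log2 differences of 3.46 and 3.01, and the second entered the test only through J0951/UAS-YUC4. AT5G04120, of the phosphoglycerate mutase family, held 105.41, 131.23 and 103.46 FPKM against 9.78, 15.32 and 10.71 FPKM (3.16). J0951/Col held 32.16, 18.07 and 15.33 FPKM of it, and the means of the J0571, Q2500 and J0121 lines were 1.14, 4.09 and 3.6 FPKM. The remaining genes were MLP28 (3.32), a late embryogenesis abundant protein (AT3G02480, 3.31) and an embryo-specific protein (AT5G62210, 3.06). For the last of these and for AT3G02480, replicate 1 of J0951/UAS-YUC4 was lowest of its group, at 10.17 and 12.71 FPKM. By the rule for these 12 genes it lay above all Q0990/UAS-YUC4 libraries.

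The 12 largest negative differences ran from -5.34 to -2.59 and fell into kinds by the position of J0951/Col. The first 3 were high in Q0990/UAS-YUC4 alone among the 6 group means of the series. AT4G16215, an uncharacterised protein, held 101.58, 86.29 and 67.73 FPKM in Q0990/UAS-YUC4, 0.83, 1.53 and 0.98 FPKM in J0951/UAS-YUC4 and 0.29, 0.14 and 0.57 FPKM in J0951/Col (-5.34, SE 0.175, limma adjusted p = 5.7e-12). The other 3 driver lines with UAS-YUC4 had group means of 0.453 FPKM (J0571), 2.05 FPKM (Q2500) and 1.84 FPKM (J0121) for this gene. AT2G19365, a protein with a Myb/SANT-like domain, held 18.46, 18.9 and 17.2 FPKM against 0.0, 0.21 and 0.0 FPKM (-4.17), and was listed at 0 in all J0951/Col libraries. AT1G23915, likewise uncharacterised, held 28.15, 25.56 and 29.1 FPKM against 0.62, 1.66 and 1.33 FPKM (-3.73). AT2G19365 and AT1G23915 entered the test only through Q0990/UAS-YUC4, where they are high, so their differences are descriptions. AT4G16215 was higher in Q0990/UAS-YUC4 than in J0951/Col by 6.01 on the log2 scale (limma adjusted p = 8.1e-13).

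In the other lowest genes J0951/UAS-YUC4 had the lowest mean of the 6 groups and J0951/Col lay beside Q0990/UAS-YUC4. The peroxidase AT5G64120 held 60.71, 58.35 and 56.13 FPKM in J0951/UAS-YUC4, 537.82, 420.73 and 625.03 FPKM in Q0990/UAS-YUC4 and 575.84, 631.92 and 471.07 FPKM in J0951/Col (-3.14, SE 0.148, limma adjusted p = 6.1e-10). Its mean was 177 ± 21.2 FPKM (SD, n = 3) in J0571/UAS-YUC4, below the 519 FPKM of Q2500 and 593 FPKM of J0121. AT1G05650, of the pectin lyase-like family, held 0.88, 0.69 and 0.95 FPKM against 14.99, 9.11 and 11.03 FPKM (-2.76), and J0571/UAS-YUC4, at 1.63 ± 0.64 FPKM (SD, n = 3), lay near J0951/UAS-YUC4, while the means of Q2500 and J0121 were 9.0 and 9.16 FPKM. AT3G05900, annotated as similar to a neurofilament protein, held 4.65, 9.34 and 2.33 FPKM against 42.71, 56.14 and 67.41 FPKM (-3.26). AT5G16730, annotated as a weak chloroplast movement under blue light protein, had a log2 difference of -2.59. The rest were 5 plastid-encoded loci, ATCG00770, ATCG00780, ATCG00790, ATCG00800 and ATCG00810, with log2 differences from -3.14 to -2.64. ATCG00790 held 10.54, 11.16 and 3.15 FPKM against 44.06, 58.24 and 59.86 FPKM. Replicate 2 of J0951/UAS-YUC4 was the highest of its group in each of these 5 loci and in AT3G05900 and AT5G16730.

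A few genes came close to presence in one line and absence in the other. There were 11 genes with at least 5 FPKM in all 3 libraries of J0951/UAS-YUC4 and under 1 FPKM in all 3 of Q0990/UAS-YUC4. Among them were ACS9, LHCB2.2, RNS1 and TI1, a trypsin inhibitor that held 8.69, 16.2 and 9.82 FPKM against 0.58, 0.84 and 0.77 FPKM (2.82, limma adjusted p = 0.00012). In the opposite direction there were 4 genes, AT1G05650, AT2G19365, AT4G36520 of the DnaJ-domain family and AT1G36085. The last of these, annotated as a mutator-like transposase, held 7.05, 7.76 and 5.31 FPKM in Q0990/UAS-YUC4, 0.15, 0.71 and 0.22 FPKM in J0951/UAS-YUC4 and 0.0 FPKM in every J0951/Col library. It too entered the test only through Q0990/UAS-YUC4, and it stood low in both J0951 lines.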

How the data were processed

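RNA-seq was done on total RNA from cut roots with random primers and Illumina sequencing, per the labels' protocols. The authors deposited FPKM values for 25202 loci in 18 libraries, while the aligner, genome build, use of strand and read numbers were not given in the sources used here. Absolute depth is therefore unknown, so no interval for counting error could be set, nor an upper limit for a gene listed at 0. The steps between low values of 26 genes, matched to whole multiples within 8%, put the relative worth of 1 fragment at 0.994 to 1.0 over the 6 libraries. Only genes whose values above 0 fitted 1 common unit over the 18 libraries were kept. Larger differences in depth could therefore not show, and equal depth is not established. The table held 0 columns of other series.

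Genes with at least 1 FPKM in at least 3 of the 18 libraries were tested, which left 19260. Values were transformed to log2(FPKM + 1), with a pseudocount of 1 FPKM. A linear model with 1 mean for each of the 6 groups was fitted in limma 3.58.1 under R 4.3.3, with a mean trend in the variance and 12 residual degrees of freedom. The median SE was 0.0994. Groups came from the sample titles. The fit was tested on simulated data.

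The groups compared, the 34 gene lists (619 entries, 594 matched by symbol in a RefSeq annotation of TAIR10.1 and 25 by written locus, 4 not in the table) and the rule for named genes were chosen with earlier results of these data known. Counts over a list are descriptions. Named were YUC4, a panel of 20 auxin and root genes, the 12 highest and 12 lowest differences described above, up to 4 called genes per list by p where at least 3 were called, and up to 4 genes in each direction near absence in 1 group. Where genes overlap on opposite strands, they cannot be told apart. Alternatives varied the pseudocount, the filter, the scaling, the libraries fitted, the variance trend and a block by replicate number, and left out each of the 6 libraries in turn.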

Additional observations from a re-analysis of the deposited data

How the results depend on the processing

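Under 16 alternatives the counts of genes called stayed within 1.5 times the reported 5562 higher and 4783 lower. A fit of the 6 libraries alone called 4924 higher and 4450 lower, median-of-ratios scaling 5189 and 5218, no filter on low values 6115 and 4820, and a filter of 5 FPKM 4702 and 4038. Leaving out 1 library gave 4452 to 5545 higher and 3930 to 4544 lower. Over 163 named genes 0 values that were called in either fit changed sign. Sign changes of values called in neither fit were not counted. Of the calls 20 were lost, 7 for LBD29, 5 for RSL4, 3 for GLK2 and 1 each for AFB5, CYCB2;2, EDS1, HY5 and AHA2. Equal replicate numbers showed no sign of pairing, since their deviations correlated at -0.109, -0.034 and -0.19 and no library correlated best with its own number. Deviations from a mean of 3 libraries are tied to each other, so a pairing is not excluded. With a replicate block 5536 genes were called higher and 4789 lower over 18 libraries, and 4245 and 3835 over the 6 libraries, where the calls of AFB5, CYCB2;2, HY5 and AHA2 were lost (limma adjusted p = 0.062, 0.055, 0.054 and 0.073) and the receptor, ARF and cell cycle genes called higher fell to 3 and 5, with 1 cell cycle, 1 iron deficiency and 1 greening gene lower. With the filter of 5 FPKM, fewer genes of low level were tested, and 4 lateral root, 3 cytokinin, 5 jasmonate, 1 salicylate, 5 phosphate and 6 abscisic acid genes were called higher. Several list counts of 1 to 4 genes moved by over 1.5 times, and the cause was not tested. The unknown depth limits what can be said of genes under 1 FPKM.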

Other observations

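The plastid and mitochondrial loci were taken as sets after their values were seen. Of 87 plastid-encoded loci 36 passed the filter, and of these 1 was higher in J0951/UAS-YUC4 and 19 were lower, 12 of them by at least 2-fold, with a median log2 difference of -0.68. Of 115 mitochondrial loci 18 passed the filter, and 1 was higher and 1 lower, with a median of 0.02. The mitochondrial share of summed FPKM was 0.0345% to 0.0433% in J0951/UAS-YUC4 and 0.0378% to 0.0391% in Q0990/UAS-YUC4. The background is 28.9% of genes higher and 24.8% lower.

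Of the 11 genes near absence in Q0990/UAS-YUC4, 3 that the naming rule did not take were singled out after their values were seen. ERF11, an ethylene response factor, held 5.45, 8.38 and 10.08 FPKM in J0951/UAS-YUC4 and 0.7, 0.54 and 0.54 FPKM in Q0990/UAS-YUC4. ZFP2, a zinc finger protein, held 6.64, 9.67 and 10.23 FPKM against 0.52, 0.17 and 0.34 FPKM. AT5G38910, a cupin family protein, held 5.06, 7.41 and 5.47 FPKM against 0.0, 0.27 and 0.34 FPKM. The rule by which these 3 genes were found sets their J0951/UAS-YUC4 libraries above those of Q0990/UAS-YUC4.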
